A study of Rattus norvegicus with 6 samples.

Results

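Primary rat hippocampal astrocyte-labelled cultures were sequenced after 12 h of insulin and after 6 h of insulin, and the difference between those 2 libraries is described here gene by gene. A gene was a member when it had a value in both libraries and reached 1 FPKM, a log2 value of 0, in at least 1 of them. FPKM counts fragments per unit of gene length and of library size, so levels of different genes can be compared on it. By this rule 6260 of 37183 gene symbols were compared. Another 15825 symbols had a value in both libraries but stayed under the floor, 3542 had a value in only 1 of the 2, and 11556 had a value in neither. Just inside the floor stood Kidins220, at a log2 value of 0.00090 at 12 h, and just outside stood Mkrn3, at −4.55e-05 at 12 h. A gene at the floor in only 1 of the 2 libraries is higher in that one by the rule itself. The direction of such a gene is therefore set by the rule, and such genes count in the list medians below.

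The cultures received 200 nM insulin for 12 h or for 6 h, and the control culture is called saline in one label and untreated at 0 min in another. All 3 had been moved 4 h before treatment to DMEM/F12 medium with 2% FBS and 5 mM glucose. The 12 h culture had therefore been 16 h in that medium, the 6 h culture 10 h and the control 4 h, and time in insulin and time in the medium cannot be told apart. No culture without insulin was sampled at 12 h or 6 h. Each group had 1 library from primary cells, so there is no replicate error, no test was possible, and every difference below describes these libraries. Neuron-labelled hippocampal cultures, also with 1 library each at control, 6 h and 12 h of 200 nM insulin, served as the comparison. Their medium was also changed 4 h before treatment, so control, 6 h and 12 h had been 4, 10 and 16 h in it. No FBS or glucose level is recorded for that medium in the sample records used here.

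Insulin signals through its receptor, PI3K and AKT to the mTOR complexes, and through a separate branch to the ERK kinases. AKT keeps the FoxO transcription factors out of the nucleus, which lowers fasting-response genes, and insulin activates the SREBP factors that drive cholesterol and fatty acid synthesis. ERK signalling raises immediate-early transcription factors within minutes, and its feedback inhibitors, such as the DUSP phosphatases and the Sprouty proteins, follow. Astrocytes make cholesterol for neurons, take up glutamate, store and release lipid, and secrete chemokines when NF-kB is active.

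The labelled cell type was checked against its markers. Of 13 astrocyte markers, 7 entered the comparison. Gfap, the astrocyte intermediate filament, had 6.23 FPKM in the control, 12.4 FPKM after 6 h and 8.45 FPKM after 12 h. The aquaporin gene Aqp4 stayed between 0.0985 and 0.212 FPKM, and the glutamate transporter gene Slc1a2 did not exceed 0.0020 FPKM in any of the 3 libraries. Fgfr3, a growth factor receptor gene, had 22.1 FPKM in the control, 24.3 after 6 h and 31.0 after 12 h, above the neuron-labelled 4.35 FPKM at 12 h. The 7 compared markers had a median difference of −0.35 log2, with 5 below 0. The 13 markers, with Fgfr3 the largest part, summed to 63.2 FPKM at 12 h and 62.9 FPKM at 6 h. In the neuron-labelled cultures they summed to 366 FPKM at 12 h and 407 FPKM at 6 h. At 12 h the neuron markers there summed to 66.9 FPKM and the oligodendrocyte lineage markers to 147 FPKM. The neuron-labelled cultures are therefore called by their label too. The pericyte and smooth muscle markers summed to 504 FPKM at 12 h and 438 FPKM at 6 h, most of it from the actin-binding gene Tagln. Other members of that list were nearly absent at 12 h: Rgs5 had 0.0047, Myh11 0.0088 and Des 0.032 FPKM. The fibroblast and meningeal markers summed to 110 FPKM at 12 h and 90.5 at 6 h, from Col1a1, Col3a1 and Fn1. Dcn, Lum and Pdgfra of that list had 0.062, 0.51 and 0.22 FPKM at 12 h. The astrocyte-labelled cultures were thus rich in some contractile and matrix transcripts and low in several markers of mature astrocytes. They are called by their label below for that reason.

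Levels at 12 h and 6 h were close, with Pearson's r of 0.988 between log2 FPKM values across the 6260 genes, which are not independent replicates. The median difference, 12 h minus 6 h, was 0.02 log2, with an interquartile range of −0.13 to 0.15. A difference of 1 log2, which is 2-fold, was reached upward by 16 genes (0.256%) and downward by 32 genes (0.511%). At a size of 0.5 log2, 150 genes (2.4%) were higher and 212 (3.39%) lower, while 53.7% of all genes lay above 0 and 46.3% below it. Each list count below is to be read beside these shares. Below, a single gene is said to have risen or fallen only where its difference reached 1 log2. In total RNA from a culture, fewer cells of one type and less RNA per cell cannot be told apart.

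**Figure D1:**
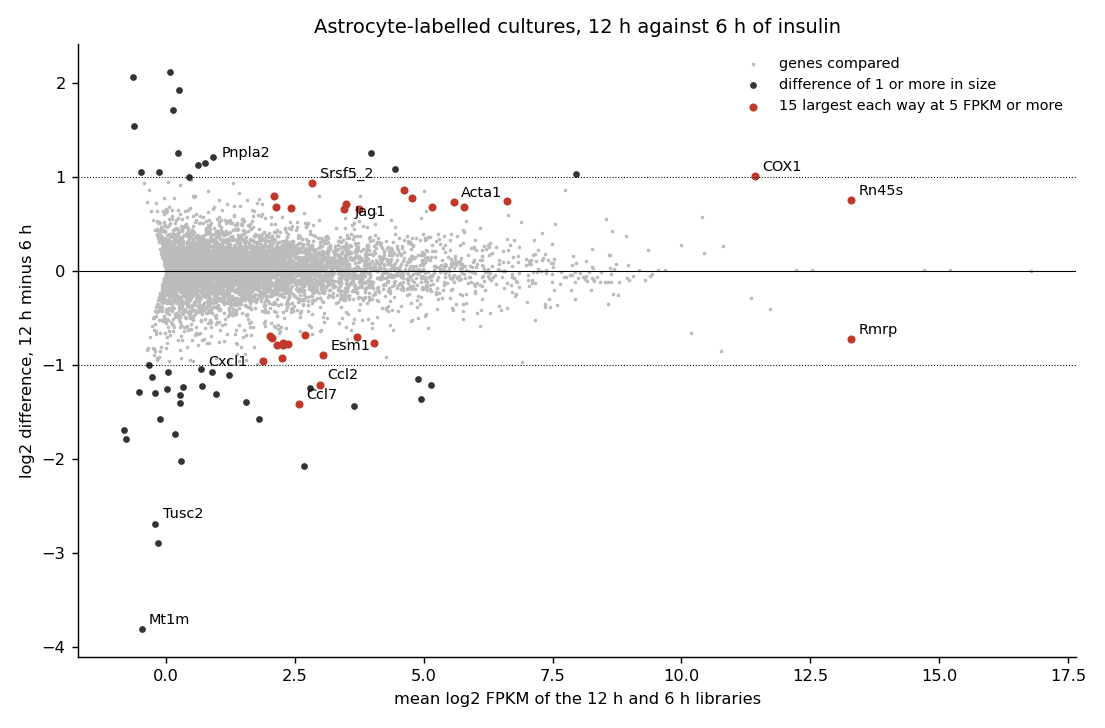
Each point is 1 of 6260 genes in the astrocyte-labelled cultures, with the mean log2 FPKM of the 12 h and 6 h libraries on the horizontal axis and the log2 difference, 12 h minus 6 h, on the vertical axis. Most points lie near 0 at every level, 16 lie at 1 or above and 32 at −1 or below, and the chemokine genes Ccl7 and Ccl2 are among the lowest at moderate levels.

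Most of the 48 genes past 2-fold carry no plain gene symbol. There were 26 locus identifiers, 7 transfer RNA rows and 1 numbered copy among them, which leaves 14 plain symbols. Of these 14, 10 fell and 4 rose. The 4 that rose were Pnpla2, the main triglyceride lipase of lipid droplets, Med22, a Mediator subunit, Apold1, an apolipoprotein-like gene, and COX1, the mitochondrially encoded catalytic subunit of cytochrome oxidase. The 10 that fell were Mt1m, Tusc2, Mgp, Ccl7, Arl4c, Gfer, Foxs1, Ccl2, Rps12l3 and Nefl. Among them Mt1m, a metallothionein, had the largest difference of any compared gene, −3.81 log2, with 1.63 FPKM before insulin, 2.70 FPKM after 6 h and 0.192 FPKM after 12 h. Tusc2, a mitochondrial tumour suppressor gene, had 1.37 FPKM in the control, 2.20 after 6 h and 0.341 after 12 h. Both were under the control level by 12 h, and both are low transcripts, where few fragments may lie behind a value; the depth is not known.

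At 5 FPKM or more in the 12 h or 6 h library there were 1909 genes, and the 15 largest differences each way were taken from these. The 15 higher at 12 h were COX1, Srsf5_2, ND6, Rn18s, ND4L, Rn45s, ATP8, Acta1, Emp2, ND5, ND4, Tnnc1, Cd24, Jag1 and Srsf5_1. They fall into mitochondrially encoded genes, ribosomal RNA rows, 2 rows of the splicing factor gene Srsf5, the muscle genes Acta1 and Tnnc1, and 3 genes of the cell surface. The 15 lower at 12 h were Ccl7, Ccl2, Cxcl1, Phlda1, Esm1, Terc, Dusp6, Slc1a1, Aqp1, Ier5l, Rmrp, Apoe, Junb, Higd2al1 and Adm, among them 3 chemokines, genes of the immediate-early and ERK feedback groups, and secreted factors. Of the 30, Ccl7, Ccl2 and COX1 passed 2-fold.

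**Figure D2:**
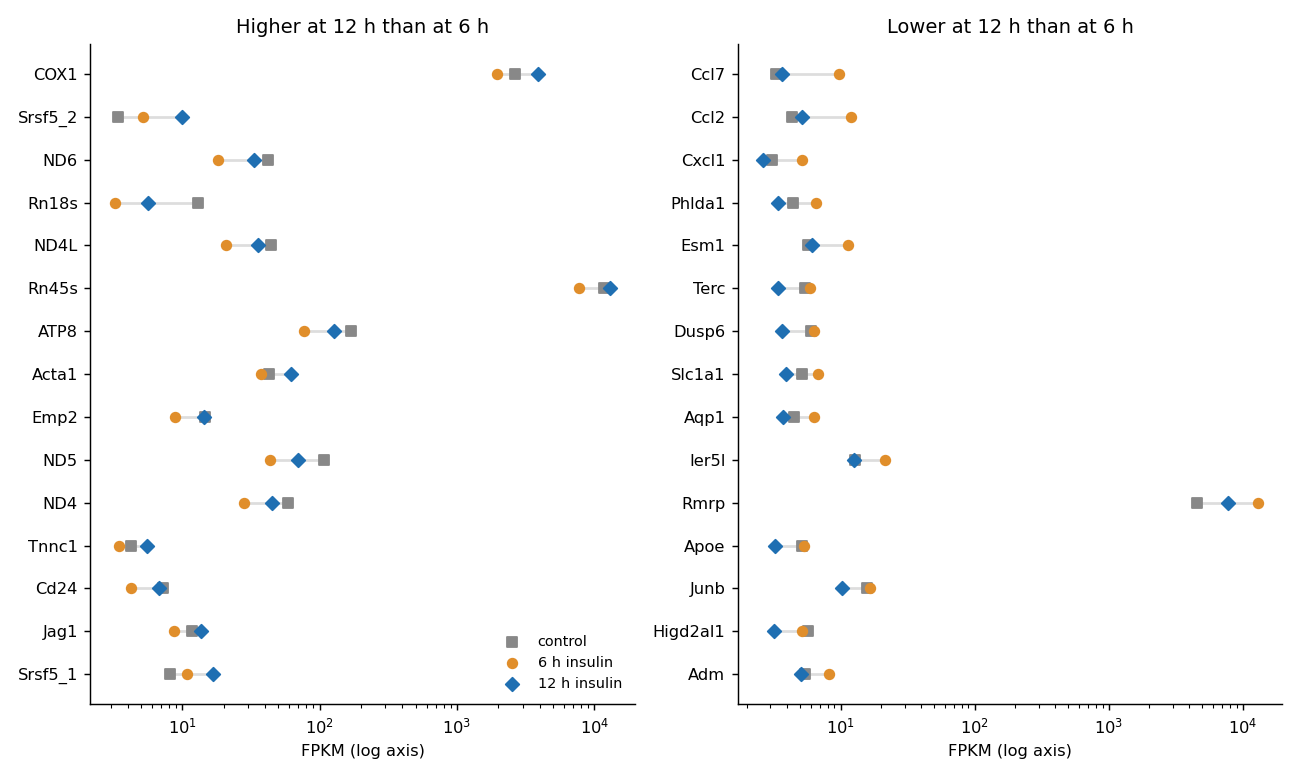
Levels in FPKM (log axis) of the 15 genes most raised and the 15 most lowered at 12 h against 6 h at 5 FPKM or more, with squares for the control, circles for 6 h and diamonds for 12 h of insulin. For Ccl7, Ccl2, Esm1 and Ier5l the 12 h diamond lies close to the control square and the 6 h circle stands apart, whereas for Dusp6, Junb and Apoe the control and 6 h symbols lie together and 12 h is lower.

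The difference moved with gene length. Genes were placed in 7 classes by their genomic span in the RefSeq table of the GRCr8 assembly, for 4995 protein-coding genes. The median difference was −0.12 log2 for genes under 2 kb, −0.09 for 2 to 5 kb, −0.02 for 5 to 10 kb, 0.05 for 10 to 20 kb, 0.10 for 20 to 50 kb, 0.14 for 50 to 100 kb and 0.17 for genes over 100 kb. Short genes were thus lower and long genes higher at 12 h than at 6 h. Of the genes under 2 kb, 11% were lower by 0.5 log2 or more and 0.806% higher. Spearman's rho between span and difference was 0.38 across these genes, and −0.01 in the neuron-labelled cultures across 4971 genes. The 6 h library set against the control had medians of 0.14 for genes under 2 kb and −0.12 for genes over 100 kb, and the 12 h library had −0.002 and 0.01 against the same control. In the classes between, the 12 h library stood highest above the control at 10 to 20 kb, with a median of 0.16, so 12 h and control differed by class too. The part of this in the gene-level results was not tested. List medians are given below also after the median of each gene's span class was taken off, for each list described in full and wherever the sign changed.

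**Figure D3:**
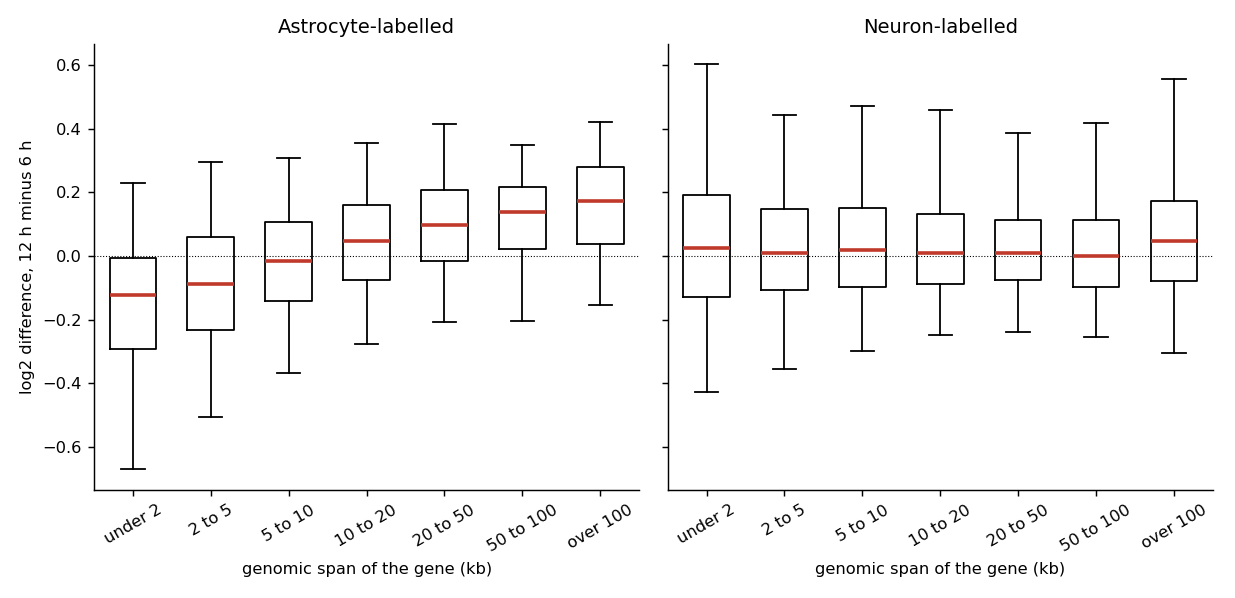
Log2 difference, 12 h minus 6 h, by genomic span of the gene (kb), in astrocyte-labelled and neuron-labelled cultures; lines in the boxes are medians, boxes the middle 50% of genes and whiskers the 5th to 95th percentiles. The astrocyte medians climb from −0.12 under 2 kb to 0.17 over 100 kb, and the neuron medians stay between −0.00 and 0.05.

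The control library was then used to sort genes by time. Of 6259 genes with a control value, 65 (1.04%) were at least 2-fold higher at 6 h than in the control and 33 (0.527%) at least 2-fold lower. Most genes lay above the control at both times: 65.1% of these genes were above it at 6 h, with a median of 0.10 log2, and 68% at 12 h, with a median of 0.11. The control took no part in the floor, so a gene at 1 FPKM or more only in the control could not enter. That rule favours rises over falls against the control, by an amount that was not tested. By 12 h, 31 of the 65 early rises had come back by 0.5 log2 or more, 32 stayed within 0.5 log2 of their 6 h level and 2 went further. Of the 33 early falls, 20 came back by that size, 11 stayed and 2 went further. At 12 h, 20 of the 65 were still 2-fold above the control, against 0.623% of all genes. Another 20 stood less than 0.5 log2 above the control or had passed below it. For the early falls, with the direction turned, these counts were 13 and 13, where 0.543% of all genes were 2-fold lower at 12 h. Both steps use the 6 h library, so a value that is high or low at 6 h by error alone will look as if it came back. The 6 h and 12 h differences from the control also share the control library. A control value that is low or high by error alone will look like an early change that was kept. Without replicates these shares are unknown.

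Among the 31 early rises that faded, 15 had plain gene symbols. They included the chemokines Ccl7 and Ccl2, the insulin-like growth factor binding proteins Igfbp5 and Igfbp3, the lipase inhibitor G0s2, the calcification inhibitor Mgp and the forkhead gene Foxs1. Rmrp, the RNA of the RNase MRP enzyme that processes ribosomal RNA, had 4569 FPKM in the control, 12927 after 6 h and 7785 after 12 h. It was thus the most abundant of the fading RNAs, and at 12 h it was still above the control. The 20 early falls that recovered held 5 mitochondrially encoded genes (ND6, ND4L, ATP8, ND5 and ND4), the ribosomal RNA rows Rn18s and Rn28s, and the ribosomal protein rows Rps9 and Rps6. Rps6, a substrate of the S6 kinases as a protein, had 8.49 FPKM in the control, 2.29 after 6 h and 3.34 after 12 h, and so recovered only in part.

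Of the 32 early rises that were kept, 16 had plain symbols. Tpi1, which encodes the glycolytic enzyme triosephosphate isomerase, had 1.65 FPKM in the control, 7.11 after 6 h and 7.46 after 12 h. Dpm3, a subunit of dolichol-phosphate mannose synthase, had 3.07, 6.70 and 6.98 FPKM in the same order, while its pseudogene row Dpm3-ps1 had 7.43, 2.70 and 2.98 FPKM and was an early fall that was kept. Dpm3 and its pseudogene therefore moved in opposite directions at both times. Genes with near-identical copies, which include Tpi1, Dpm3, the ribosomal protein rows, the Srsf5 rows and Tubb2a_1, are uncertain, because fragments can be shared out between copies in different ways.

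Late changes, under 0.5 log2 from the control at 6 h and then moving by 1 log2 or more by 12 h, were few. There were 4 late rises, of which COX1 had the only plain symbol, and 10 late falls, with the plain symbols Gfer, a sulfhydryl oxidase of the mitochondrial intermembrane space, and Rps12l3. COX1 was already at −0.44 log2 against the control at 6 h, close to the class limit, where all genes had a median of 0.10. Its late class is therefore a narrow one, and part of its later rise made up for the lower 6 h level. Gfer had 1.49 FPKM in the control, 1.57 after 6 h and 0.659 after 12 h, a difference of −1.26 log2. Continuing rises, with 0.5 log2 or more in each interval and at least 1 log2 in sum, numbered 7, and continuing falls 3. Med22 had 0.451 FPKM in the control, 1.05 after 6 h and 2.28 after 12 h. Srsf5_2 had 3.38, 5.18 and 9.90 FPKM in that order. Both therefore built up over the 12 h, as did the other plain symbols of that class, Ypel4, Osgin2 and Mapk8ip3, at lower levels.

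**Figure D4:**
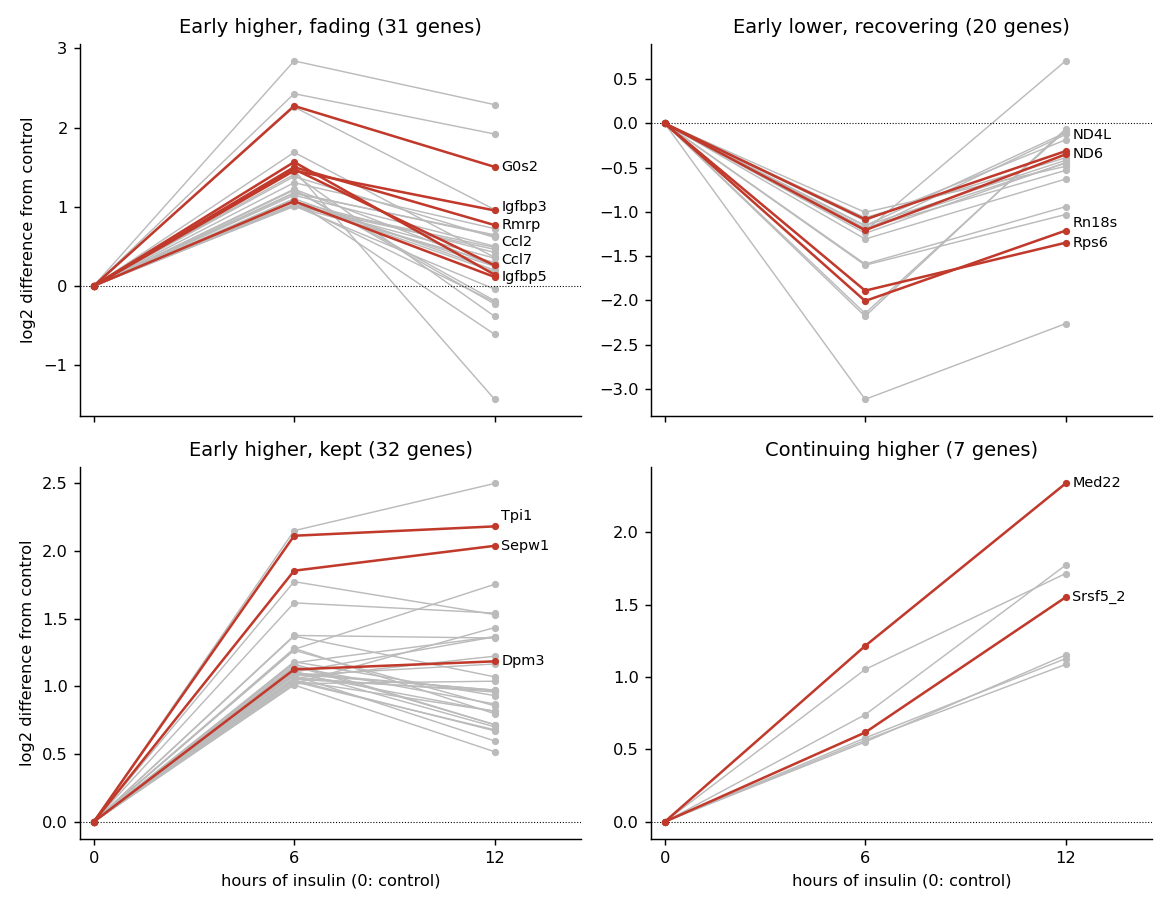
Log2 difference from the control at 6 h and 12 h of insulin for the genes of 4 time classes in the astrocyte-labelled cultures, with each line 1 gene and named genes in red. Of the 31 early rises that faded, Ccl2 and Ccl7 lie near 0 at 12 h and G0s2 still lies above 1, while Med22 continues to 2.34.

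Chemokine genes had the lowest list median at 12 h. Of 28 listed chemokine, cytokine and adhesion genes, 8 entered the comparison, and 7 of these were below 0 and 1 above it. Their median was −0.67 log2, against 0.02 over all genes. Of the 8, 5 were lower by 0.5 log2 or more, against 3.39% of all genes, and 0 higher. With span-class medians taken off, the median was −0.66. Against the control the same 8 genes had a median of 0.71 at 6 h, where the all-gene median was 0.10, and of 0.08 at 12 h, where it was 0.11.

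Ccl7, a chemokine that attracts monocytes, had 3.31 FPKM in the control, 9.79 after 6 h and 3.65 after 12 h. Ccl2, the main monocyte chemoattractant, had 4.33 FPKM in the control, 12.0 after 6 h and 5.18 after 12 h. In both the 6 h library was the high one and 12 h was close to the control, so that Ccl7 fell by 1.42 log2 and Ccl2 fell by 1.22 log2 between 6 h and 12 h. Cxcl1, a chemokine for neutrophils, had 3.08 FPKM in the control, 5.12 after 6 h and 2.63 after 12 h, a difference of −0.96 log2. Cxcl12, the ligand of the CXCR4 receptor, had 0.666, 1.141 and 0.641 FPKM in that order. Cxcl1 and Cxcl12 were both slightly under the control at 12 h. Cxcl12 reached the floor only at 6 h. Lif, a cytokine of the interleukin-6 family, and Csf1, the macrophage growth factor, differed by −0.50 and −0.30 log2. Ptgs2, which makes prostaglandins, was nearly level at −0.07. Icam1, a leukocyte adhesion receptor, was the 1 member above 0, with 13.7 FPKM at 12 h and 12.2 FPKM at 6 h.

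Genes that NF-kB induces to restrain itself were lower too. Of 7 compared, 6 were below 0 and the median was −0.29 log2, or −0.17 with span-class medians taken off. Tnfaip3, a ubiquitin-editing inhibitor of NF-kB, had 0.768 FPKM in the control, 1.17 after 6 h and 0.646 after 12 h. It reached the floor only at 6 h. Nfkbia, the inhibitor that holds NF-kB in the cytoplasm, had 3.75 FPKM in the control, 5.14 after 6 h and 3.78 after 12 h. Each was highest at 6 h and near or under the control at 12 h. Interferon-stimulated genes changed little: the median of 5 compared was −0.14 and none reached 0.5 log2 in either direction.

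Microglia are a common source of chemokines in glial cultures. Of 11 microglia markers, 1 (Tmem119) reached 1 FPKM, with 4.09 FPKM in the control, 6.42 after 6 h and 4.79 after 12 h. The list summed to 5.11 FPKM at 12 h and 6.67 FPKM at 6 h. C1qa, C1qb and Tyrobp had no value in any of the 3 libraries, and Aif1, Itgam, Cx3cr1, Csf1r, Ptprc and P2ry12 stayed at or below 0.0456 FPKM. Cd68 had 0.0605 FPKM in the control, 0.165 after 6 h and 0.242 after 12 h, an order unlike that of Tmem119. Of 8 endothelial markers, 0 reached 1 FPKM, and their sum was 0.549 FPKM at 12 h and 0.360 FPKM at 6 h.

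Promoter sequences of 4 lowered inducible genes are shown, chosen after their values and motif matches were seen, 3 with matches and Phlda1 with none. They run from 250 bases before to 50 bases after the start of the gene, 5′ to 3′ on the coding strand, from RefSeq on the GRCr8 build, with the letters of any motif match in capitals. Both strands were searched for a core promoter element spelled TATAAA, for the AP-1 element spelled TGANTCA, for the promoter element spelled CCAAT and for the NF-kB consensus. Matches that overlap print as 1 run of capitals.
Ccl7: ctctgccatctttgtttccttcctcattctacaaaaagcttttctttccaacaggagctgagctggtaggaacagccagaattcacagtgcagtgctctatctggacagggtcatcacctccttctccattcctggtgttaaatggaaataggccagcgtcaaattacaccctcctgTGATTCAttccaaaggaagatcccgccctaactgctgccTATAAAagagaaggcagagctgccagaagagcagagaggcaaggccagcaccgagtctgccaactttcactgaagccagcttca
Cxcl1: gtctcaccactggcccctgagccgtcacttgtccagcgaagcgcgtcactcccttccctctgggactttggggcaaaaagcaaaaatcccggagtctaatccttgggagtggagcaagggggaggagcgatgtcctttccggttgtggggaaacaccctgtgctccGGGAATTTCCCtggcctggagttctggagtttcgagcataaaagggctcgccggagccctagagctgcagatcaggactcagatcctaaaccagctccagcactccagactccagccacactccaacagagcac
Junb: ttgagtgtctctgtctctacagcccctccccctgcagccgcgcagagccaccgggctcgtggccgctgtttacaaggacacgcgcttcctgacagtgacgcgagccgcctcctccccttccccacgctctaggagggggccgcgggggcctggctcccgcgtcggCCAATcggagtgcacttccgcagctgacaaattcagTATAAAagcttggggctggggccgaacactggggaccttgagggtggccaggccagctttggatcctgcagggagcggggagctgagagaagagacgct
Phlda1: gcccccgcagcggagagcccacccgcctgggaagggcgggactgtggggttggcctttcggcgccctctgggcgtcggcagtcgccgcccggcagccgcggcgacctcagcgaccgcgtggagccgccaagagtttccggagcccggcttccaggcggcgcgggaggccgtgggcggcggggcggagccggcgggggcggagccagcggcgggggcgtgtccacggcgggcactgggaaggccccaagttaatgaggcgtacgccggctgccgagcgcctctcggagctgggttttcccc

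In the Ccl7 window the search found 1 TGANTCA match and 1 TATAAA match. The Cxcl1 window held 2 overlapping NF-kB matches, which form the run of capitals, and the Junb window held 1 CCAAT match and 1 TATAAA match. The windows of the lowered genes Phlda1 and Ier2 and of Acta2, higher at 12 h, held 0 matches to any of the motifs, and that of Acta1, also higher at 12 h, held 1 TATAAA match. Promoters were available for 104 of the 127 protein-coding genes lower by 0.5 log2 or more, for 62 of the 76 higher ones and for 4162 of all 4995 compared. TATAAA was present in 19.2% of the lower genes' promoters, in 8.06% of the higher genes' and in 7.3% of all compared. TGANTCA was present in 10.6%, 8.06% and 5.17% of the same sets, the NF-kB consensus in 8.65%, 6.45% and 4.52%, and CCAAT in 48.1%, 40.3% and 40.4%. Over all 27457 RefSeq promoters of this length the shares were 14.3% for TATAAA, 7.33% for TGANTCA, 4.16% for NF-kB and 37.7% for CCAAT. A match is a run of letters and not a shown binding site.

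Immediate-early transcription factors were mostly lower at 12 h. Of 15 compared, 11 were below 0 and 4 above, the median was −0.31 log2, or −0.19 with span-class medians taken off, and 4 were lower by 0.5 log2 or more. Junb, an AP-1 subunit, had 15.7 FPKM in the control, 16.6 after 6 h and 10.2 after 12 h. Egr1, a zinc-finger factor downstream of ERK, had 1.46, 1.24 and 0.652 FPKM in that order. Of the 12 h and 6 h libraries, Egr1 reached the floor only in that of 6 h. In these 2 genes control and 6 h were alike and 12 h was the low library, unlike the chemokines, where 6 h stood apart. Jun, the AP-1 partner, had 12.2 FPKM in the control, 14.99 after 6 h and 10.5 after 12 h, and Ier2 had 7.02, 8.65 and 5.70 FPKM. Fos, the AP-1 subunit that responds fastest to growth factors, was level at 2.07 FPKM at 12 h and 2.03 FPKM at 6 h. Myc differed by −0.16 log2, and the Krüppel-like factors Klf2, Klf4 and Klf6 were above 0, at 0.15, 0.15 and 0.27.

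Feedback genes of the ERK branch followed a similar course. Of 12 compared, 8 were below 0, with a median of −0.17 log2 (−0.15 with span-class medians taken off), and 3 were lower by 0.5 log2 or more, of which Lif is also in the chemokine list. Dusp6, the phosphatase that turns off ERK, had 6.05 FPKM in the control, 6.31 after 6 h and 3.65 after 12 h. Phlda1, a growth-factor-induced gene, had 4.43, 6.53 and 3.44 FPKM in that order. For both, 12 h was the lowest of the 3 libraries. Spry2, a Sprouty inhibitor, differed by −0.40 log2, while Dusp1, a phosphatase of the stress kinases, stood at 0.17 and Hbegf, a ligand of the EGF receptor, at 0.17.

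Secreted and surface genes outside these lists made up much of the rest of the 15 most lowered genes. Esm1, a secreted proteoglycan, had 5.75 FPKM in the control, 11.4 after 6 h and 6.08 after 12 h. Adm, which encodes the vasodilator adrenomedullin, had 5.40, 8.19 and 5.08 FPKM, and Ier5l, an immediate-early response gene, had 12.8, 21.5 and 12.7 FPKM. These 3 peaked at 6 h and stood near the control at 12 h. Slc1a1, a glutamate transporter gene, had 5.18 FPKM in the control, 6.76 after 6 h and 3.95 after 12 h. Apoe, the apolipoprotein that carries cholesterol out of astrocytes, had 5.15, 5.37 and 3.26 FPKM. For Slc1a1 and Apoe the 12 h library was the lowest of the 3. Terc, the telomerase RNA, Aqp1, a water channel gene, and Higd2al1 differed by −0.79, −0.77 and −0.70 log2.

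Lipid droplet genes split. Of 11 compared, 5 were above 0 and 6 below, with a median of −0.11 log2, and −0.11 with span-class medians taken off. Pnpla2, the lipase that starts triglyceride breakdown, had 2.12 FPKM in the control, 1.23 after 6 h and 2.85 after 12 h, so it rose by 1.21 log2 between 6 h and 12 h after standing under the control at 6 h. G0s2, which encodes the inhibitor of that lipase, had 0.471 FPKM in the control, 2.28 after 6 h and 1.33 after 12 h, a difference of −0.77 log2. The lipase gene was therefore lowest and its inhibitor gene highest in the same 6 h library. In the neuron-labelled cultures Pnpla2 had 2.30 FPKM in the control, 0.834 after 6 h and 1.45 after 12 h, again lowest at 6 h, and G0s2 had 5.31, 8.26 and 9.77 FPKM, with no decline by 12 h. The fatty acid binding protein genes Fabp3 and Fabp7 differed by −0.58 and −0.50 log2, and Fabp5 by 0.01. The droplet coat genes Plin2 and Plin3 stood at −0.11 and 0.16.

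Cholesterol synthesis genes lay slightly above 0 together. Of 20 compared, 18 were above 0 and 2 below, with a median of 0.20 log2, or 0.13 with span-class medians taken off, though none reached 0.5 log2. All 20 were above the control at 6 h, with a median of 0.29, and all 20 at 12 h, with a median of 0.49, against all-gene medians of 0.10 and 0.11. Lss, which closes the sterol ring, had 0.606 FPKM in the control, 0.827 after 6 h and 1.11 after 12 h. It reached the floor only at 12 h. Fdps, which makes farnesyl pyrophosphate, had 11.0, 13.5 and 16.3 FPKM, and Insig1, a sterol-responsive brake on SREBP, had 9.46, 10.9 and 13.1 FPKM. In each of these 3 the order was control, 6 h, 12 h from low to high. Mvd and Dhcr7, enzymes of the same pathway, were the 2 members below 0, both at −0.03.

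Fatty acid synthesis genes were mixed. Of 10 compared, 6 were above 0, against 53.7% of all genes, and the median was 0.06 log2, or −0.02 with span-class medians taken off. The stearoyl-CoA desaturase row Scd had 40.0 FPKM in the control, 44.4 after 6 h and 57.1 after 12 h, and the row Scd1 had 0.832, 1.44 and 1.84 FPKM. Srebf1, the SREBP gene for fatty acid synthesis, had 1.48 FPKM in the control, 2.65 after 6 h and 1.86 after 12 h, a difference of −0.51 log2. The desaturase rows were thus highest at 12 h and Srebf1 at 6 h. Fasn, the fatty acid synthase, was nearly level between the times, with 9.15 FPKM at 12 h and 8.58 FPKM at 6 h. Fatty acid oxidation genes showed no common direction, with 4 of 9 above 0 and 5 below, a median of −0.00 log2 and values from −0.25 for Acads to 0.25 for Cpt1c.

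FoxO factors and their fasting-response targets had been lower at 6 h and came back in part. Of 10 compared, 7 were above 0 and 3 below, with a median of 0.17 log2 (0.20 with span-class medians taken off), after medians of −0.35 at 6 h and −0.21 at 12 h against the control, where all genes had 0.10 and 0.11. Txnip, which restrains glucose uptake, had 15.9 FPKM in the control, 10.3 after 6 h and 12.4 after 12 h. Ccng2, an atypical cyclin that FoxO factors induce, had 2.26, 1.46 and 1.89 FPKM. Both lay between their 6 h and control levels at 12 h. Irs2, the insulin receptor substrate gene that FoxO factors raise, had 2.63 FPKM in the control, 1.80 after 6 h and 1.76 after 12 h, and so did not come back. Trib1, a pseudokinase gene, and Gadd45a, a stress gene, were lower at 12 h, at −0.41 and −0.22 log2.

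Signalling components of the insulin pathway changed little. Of 10 compared, 7 were above 0, with a median of 0.08 log2, and Pik3r3, a regulatory subunit of PI3K, reached 0.54. The insulin-like growth factor group had a median of −0.13 log2 over 9 genes, 5 of them below 0, and this median turned to 0.0048 when members that sit in another list were left out. Igfbp5 had 1.76 FPKM in the control, 3.70 after 6 h and 1.91 after 12 h. Igfbp3 had 3.77, 10.4 and 7.31 FPKM in that order. Both binding protein genes peaked at 6 h, and Igfbp5 was close to the control at 12 h while Igfbp3 was not. Igfbp2, Igf2 and Igf2r were slightly above 0, at 0.23, 0.19 and 0.14.

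Glucose metabolism genes were nearly level. The glycolysis list had a median of 0.04 log2 (−0.01 with span-class medians taken off) over 17 genes. It had 10 above 0 and 7 below, against 53.7% of all genes above 0, and none reached 0.5 log2. Of its 17 members, 16 were above the control at 6 h and 15 at 12 h, against 65.1% and 68% of all genes. Ldha, lactate dehydrogenase, had 15.6 FPKM in the control, 22.5 after 6 h and 22.2 after 12 h, and Pgam1, phosphoglycerate mutase, had 27.5, 35.4 and 39.0 FPKM. Their excess over the control, below 2-fold, was therefore kept at 12 h. Aldoc, the astrocyte aldolase, and Pfkl, the liver-type phosphofructokinase, were lower at 12 h, at −0.40 and −0.34 log2. The pyruvate dehydrogenase and TCA cycle list had a median of 0.07 over 17 genes, or −0.03 with span-class medians taken off, led by Pdha1 at 0.46. Hypoxia-response genes had a median of −0.02 over 12, with Adm the 1 member past 0.5 log2 in size.

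Growth genes split by function. Ribosome biogenesis genes had all 28 members above the control at 6 h, against 65.1% of all genes. Their median there was 0.42, against 0.10 for all genes. Between 6 h and 12 h, 23 of the 28 were below 0, against 46.3% of all genes. The median was −0.10 log2 and did not move with span-class medians taken off. None reached 0.5 log2. Srm, spermidine synthase, had 7.59 FPKM in the control, 12.2 after 6 h and 9.87 after 12 h, and Rrs1, a ribosome assembly factor, had 8.93, 11.3 and 8.98 FPKM. Nop56, a core snoRNP protein gene, had 5.95, 9.28 and 8.53 FPKM. The excess over the control, below 2-fold at 6 h, was gone at 12 h for Rrs1 and mostly kept for Nop56. Gnl3, Npm1 and Ncl, nucleolar protein genes, were higher at 12 h than at 6 h, at 0.16, 0.14 and 0.13.

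Cell cycle genes moved apart by phase. Of 26 G1/S genes, 18 were below 0, against 46.3% of all genes, and 8 above. Their median was −0.10 log2 (−0.14 with span-class medians taken off). Of 19 G2/M genes, 19 were above 0, against 53.7% of all genes. The G2/M median was 0.24 (0.22 with span-class medians taken off). None of either list reached 0.5 log2 in size. Against the control the G2/M median was −0.07 at 6 h, with 6 of 19 above it, and 0.15 at 12 h, with 15 above it. The G1/S median was 0.24 at 6 h and 0.14 at 12 h, where all genes had 0.10 and 0.11. Ccnd1, the cyclin of growth-factor entry into the cycle, had 45.6 FPKM in the control, 63.6 after 6 h and 49.9 after 12 h. Cdt1, a replication licensing factor, had 0.856, 1.41 and 1.08 FPKM. Both peaked at 6 h. Among mitotic genes Cdk1, the mitotic kinase, had 2.49 FPKM in the control, 2.43 after 6 h and 2.98 after 12 h, and Cdc25b, the phosphatase that activates it, had 1.18, 1.12 and 1.46 FPKM. Their highest library was the 12 h one. Mki67, a proliferation antigen, was highest in the control at 5.58 FPKM, with 3.73 FPKM at 6 h and 4.28 at 12 h. In the neuron-labelled cultures the same 19 G2/M genes had a median of −0.47, with 17 below 0, against 51.7% of all genes there.

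Histone rows were lower at 12 h, with 15 of 18 below 0, a median of −0.27 log2 and 2 members past −0.5. Hist1h2bd had 15.7 FPKM in the control, 18.0 after 6 h and 12.6 after 12 h, and Hist2h3c2 had 2.70, 3.72 and 2.53 FPKM. The replacement histones H3f3b and H2afz, which are made outside replication, were at 0.04 and 0.11, and H1f0, a linker histone of resting cells, at 0.30. Spans were found for 72.2% of this list, too few for the span-class median to be used, and histone rows share near-identical sequences.

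Splicing regulators were higher at 12 h as a group. Of 40 SR proteins, hnRNPs and splicing kinases, 37 were above 0 and 3 below, against 53.7% of all genes above 0. The median was 0.24 log2 (0.21 with span-class medians taken off), and 6 were higher by 0.5 log2 or more, against 2.4% of all genes. All 40 were above the control at 12 h, against 68% of all genes, and 32 at 6 h, against 65.1%. Clk1, a kinase that phosphorylates SR proteins, had 2.34 FPKM in the control, 2.81 after 6 h and 4.25 after 12 h. Its relative Clk4 had 0.646, 0.715 and 1.11 FPKM, and reached the floor only at 12 h. Rbm39, a splicing cofactor, had 3.66 FPKM in the control, 2.97 after 6 h and 4.51 after 12 h. Hnrnpdl had 8.46, 11.1 and 16.1 FPKM. All 4 were highest at 12 h, though Rbm39 first stood under the control at 6 h. Srsf3, Srsf7 and Srsf9, core SR proteins, were nearly level at −0.07, −0.02 and −0.02. In the neuron-labelled cultures the same list had a median of 0.00 between 6 h and 12 h.

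RNA components of the ribosome and its processing moved in both directions. Rn45s, the row of the ribosomal RNA precursor, had 11771 FPKM in the control, 7752 after 6 h and 13032 after 12 h. Rn18s, the small-subunit RNA, had 13.0, 3.24 and 5.62 FPKM, and Rn28s, the large-subunit RNA, had 4.09, 1.35 and 2.01 FPKM. All 3 were lowest at 6 h, whereas Rmrp was highest there. Gas5, a snoRNA host gene, had 8.33 FPKM in the control, 15.4 after 6 h and 19.7 after 12 h, and Snhg4, another host gene, had 1.61, 1.98 and 3.19 FPKM. Both host genes were higher at each step, below 2-fold in each. Ribosomal RNA was depleted before sequencing, so the ribosomal rows also carry the efficiency of that step in each library, and their part in these values was not tested.

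The list of mitochondrially encoded genes had the highest median. Of 13 compared, 12 were above 0, with a median of 0.63 log2, and 10 were higher by 0.5 log2 or more, against 2.4% of all genes. At 6 h the same 13 had a median of −0.99 against the control, with 12 below it, where all genes had a median of 0.10. COX1 had 2648 FPKM in the control, 1948 after 6 h and 3914 after 12 h, so 12 h was its highest library. ND5, a complex I subunit, had 108, 43.5 and 69.6 FPKM, and CYTB, the complex III cytochrome, had 161, 80.8 and 122 FPKM. ND5 and CYTB were among the 11 members that were lowest at 6 h and stood between the 6 h and control levels at 12 h. ND3, another complex I subunit, was the 1 member below 0, with 416 FPKM in the control, 445 after 6 h and 374 after 12 h. Nuclear-encoded respiratory chain genes did not follow: 18 of 48 were above 0, the median was −0.04 log2 and none reached 0.5 log2. Mitochondrial transcripts carry no introns, and no span class was assigned to them. The list compared here leaves out transfer RNA rows, some of which carry symbols of mitochondrial transfer RNAs and moved in both directions. Trnq had 2.45 FPKM after 6 h and 0.330 after 12 h, a difference of −2.89 log2. Trnl2, Trng, Trnt and Trnm, also low transcripts, differed by 1.15, 1.71, 1.92 and 2.06 log2.

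Contractile genes stood higher at 12 h throughout. Of 16 compared, 16 were above 0, with a median of 0.27 log2 (0.23 with span-class medians taken off), and 16 were above the control at 12 h and 8 at 6 h, against 68% and 65.1% of all genes. Acta2, smooth muscle actin, had 54.4 FPKM in the control, 47.4 after 6 h and 68.2 after 12 h. Cald1, caldesmon, had 14.4, 10.4 and 14.5 FPKM, and Tpm1, a tropomyosin, had 36.6, 33.9 and 44.6 FPKM. Each was lowest at 6 h, and only Acta2 reached 0.5 log2 between the times. Outside this list Acta1, skeletal muscle actin, had 42.5 FPKM in the control, 37.4 after 6 h and 62.0 after 12 h, and Tnnc1, slow troponin C, had 4.24, 3.47 and 5.54 FPKM. Both shared the order 6 h, control, 12 h from low to high.

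Jag1, a Notch ligand, had 11.7 FPKM in the control, 8.69 after 6 h and 13.7 after 12 h. Emp2, a membrane protein, had 14.7, 8.78 and 14.3 FPKM, and Cd24, a surface glycoprotein, had 7.17, 4.24 and 6.73 FPKM. These 3 surface genes were lowest at 6 h, and at 12 h Emp2 and Cd24 were close to the control and Jag1 somewhat above it.

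Collagen genes had a median of 0.16 log2 over 10, with 8 above 0, but −0.01 with span-class medians taken off, as these are long genes with a median span of 122 kb. Col3a1 had 21.4 FPKM in the control, 17.1 after 6 h and 24.8 after 12 h, and Col11a1 had 2.16, 1.42 and 2.04 FPKM. Matrix proteases, crosslinkers and matricellular genes had no common direction, with 11 of 24 above 0 and a median of −0.02 log2. Spp1, osteopontin, had 57.5 FPKM in the control, 64.9 after 6 h and 45.3 after 12 h, and Loxl3, a lysyl oxidase, had 2.67, 3.59 and 2.51 FPKM. These 2 were the members lower by 0.5 log2 or more. TGF-beta and YAP targets had a median of 0.01 over 25 (−0.05 with span-class medians taken off), with Grem1, a secreted BMP antagonist, at −0.93 and Id1, a BMP target, at −0.63. Id1 had 15.5 FPKM in the control, 26.4 after 6 h and 17.0 after 12 h, and its relative Id3 had 67.4, 105 and 78.3 FPKM. The Id genes thus shared the 6 h peak, while Ctgf, a main YAP target, was level at 744 FPKM at 12 h and 741 FPKM at 6 h.

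Protein quality and stress genes moved little. Proteasome subunits were above 0 in 24 of 27 cases, against 53.7% of all genes. Their median was 0.10 log2 (0.08 with span-class medians taken off), with none past 0.28. The integrated stress response list had a median of 0.11 over 26, ER chaperones 0.09 over 18, antioxidant genes 0.10 over 18 and heat-shock proteins 0.05 over 23, all 0.04 or less with span-class medians taken off. Hspa8, the constitutive chaperone, had 12.1 FPKM in the control, 13.5 after 6 h and 20.7 after 12 h, whereas Hspa1b, the inducible one, had 4.43, 4.96 and 3.36 FPKM. These 2 were the heat-shock genes past 0.5 log2, in opposite directions. Lysosomal genes had a median of −0.02 over 23, cytosolic ribosomal proteins −0.07 over 73 and amino acid transporters 0.02 over 7. With span-class medians taken off, the ribosomal proteins stood at 0.01 and the transporters at −0.08. Clock genes had 4 members compared, with Bhlhe40, a repressor of the clock, at 3.08 FPKM at 12 h and 4.54 FPKM at 6 h.

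**Figure D5:**
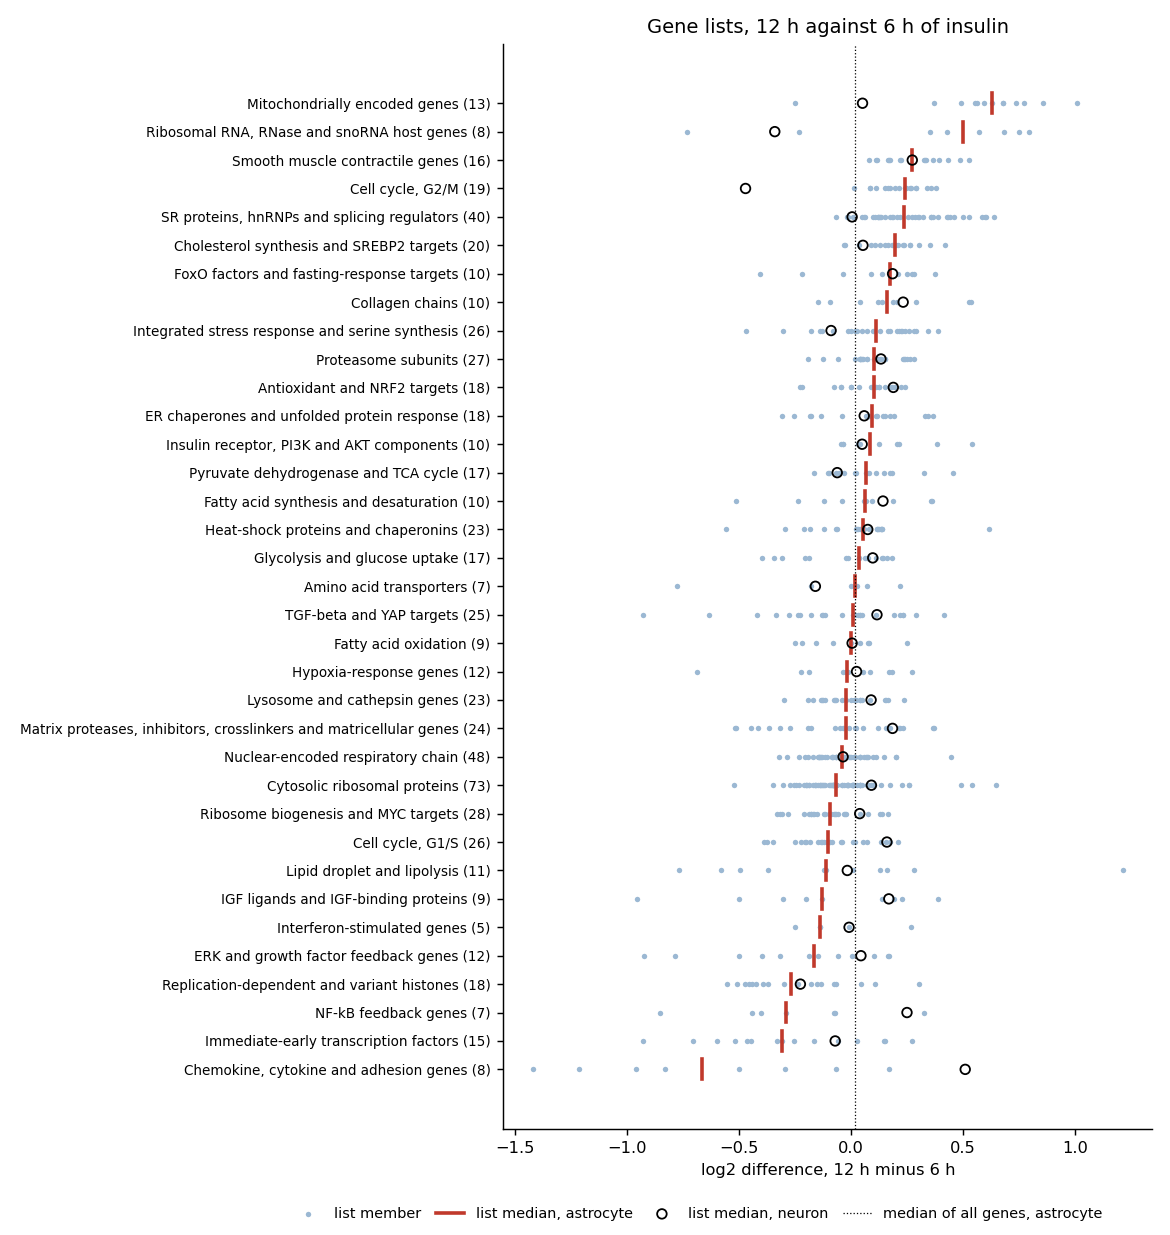
Log2 difference, 12 h minus 6 h, of the compared members of each gene list in the astrocyte-labelled cultures (small points, number in brackets), with the astrocyte list median as a bar, the neuron list median as an open circle and the all-gene astrocyte median as a dotted line. The mitochondrially encoded genes stand highest at a median of 0.63 and the chemokine genes lowest at −0.67, where the neuron circle lies on the other side at 0.51.

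The same interval in the neuron-labelled cultures gave differences of 2-fold or more for 37 higher (0.555%) and 34 lower (0.51%) of 6662 genes. Of the 150 genes higher by 0.5 log2 or more in the astrocyte-labelled cultures, 147 had values in both neuron libraries, and 16 of these were higher by that size there, where 3.14% of all genes were, and 17 lower. Of the 212 lower genes, 203 had values, with 18 lower and 25 higher in the neuron-labelled cultures, where 2.45% of all genes were lower by that size. Across 6222 genes Pearson's r between the 2 differences was −0.04, given as a description. Shared genes were thus about as often opposite as alike in direction at this size. Ccl2 had 1.05 FPKM in the neuron control, 3.0001 at 6 h and 6.26 at 12 h, still climbing where the astrocyte-labelled level had come back. Junb had 13.2, 13.3 and 21.5 FPKM in the same order, and Dusp6 had 3.22, 3.76 and 5.33 FPKM. All 3 were highest at 12 h in the neuron-labelled cultures and lowest or near the control at 12 h in the astrocyte-labelled ones, and whether the cell types differ cannot be tested with 1 library each.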

How the data were processed

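Per the labels' protocols, a stranded kit and removal of ribosomal RNA were used on total RNA of cultured rat hippocampal cells. The deposited values are log2 FPKM in 1 table, quantile-normalised by the authors across the 6 libraries, as the deposited table's name and its columns show. Base 2 was settled from the values: the Rn45s maximum would exceed the unit's total on a natural log. Quantile normalisation left all libraries with one highest value and nearly one median over their symbols with a value. A shift shared by all such symbols is thus removed. The astrocyte-labelled libraries differed in how many symbols had a value: 22891 (control), 23814 (6 h) and 23898 (12 h). Over the compared genes an offset from the control remained, with medians of 0.10 log2 (6 h) and 0.11 log2 (12 h). Its cause was not tested. Build Rnor 6.0, Partek 6.5 and bcl2fastq 2.17.1.14 are listed in the submitters' processing notes, and the aligner is not given in the sources used here. Counts were not used, so depth is unknown and no counting interval is given.

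Differences were computed on the deposited scale with no pseudocount, in Python 3.11.15 with pandas 2.3.3, on 1 library per group, and no p-value was computed. The floor was 1 FPKM. Libraries had between 22891 and 23898 symbols with a value in the astrocyte-labelled cultures. Some symbols repeat: for 2 of them the row of higher mean level stayed in. Spans, promoters and gene types came from RefSeq tables of GRCr8, another build, so no coordinates are given. Time classes used 1 log2 for a change from the control and 0.5 log2 for a later move. The naming rule covered the 15 largest differences each way at 5 FPKM or more and the 8 largest of each time class. It also covered list members at 0.5 log2 or more or among the 4 largest each way. All markers were in the rule, though only some are named here. Other list members, the genes past 2-fold below 5 FPKM and those compared with neurons were chosen after their values were seen. Members and gene lists were chosen with earlier results of these data known. The counting of differences past 0.5 and 1 log2 was checked on simulated data with planted differences and little noise. The floor, the time classes and the list medians were not part of that check. Alternatives covered the floor, a pseudocount, symbol kinds, centring, shared list members and, chosen after seeing the data, span classes.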

Additional observations from a re-analysis of the deposited data

Results flagged for a closer look

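For several results the 12 h minus 6 h difference in the astrocyte-labelled cultures and the same difference in the neuron-labelled cultures lay on opposite sides of 0. With 1 library per group the difference between the cell types was not tested. Ccl2 stood at −1.22 log2 in the astrocyte-labelled and 1.06 in the neuron-labelled cultures. Junb stood at −0.70 and 0.70, and Dusp6 at −0.79 and 0.50, in the same order. COX1 stood at 1.01 in the astrocyte-labelled and −0.57 in the neuron-labelled cultures, Srsf5_2 at 0.93 and −0.52, and Rn18s at 0.79 and −1.20. Control levels of Rn18s were 13.0 FPKM in the astrocyte-labelled and 234 FPKM in the neuron-labelled cultures, after depletion of ribosomal RNA.

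List medians that did the same were those of the chemokine, cytokine and adhesion genes (−0.67 astrocyte, 0.51 neuron), the NF-kB feedback genes (−0.29 astrocyte, 0.25 neuron) and the G2/M genes (0.24 astrocyte, −0.47 neuron). Of the 8 chemokine, cytokine and adhesion genes compared, 8 were above 0 in the neuron-labelled cultures, against 48.3% of all genes there.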

How the results depend on the processing

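No paired analysis was possible because each group had 1 library and the labels carry no replicate numbers; leaving out a replicate was not possible either. Counts below are genes higher and lower by 1 log2 and then by 0.5 log2 or more. Reported counts were 16 and 32, then 150 and 212. Without a floor they were 1215 and 1080, then 2766 and 2711. With a floor of 5 FPKM they were 4 and 9, then 42 and 61. On log2(FPKM + 1) they were 6 and 14, then 55 and 94. For plain gene symbols they were 4 and 10, then 88 and 111. With span-class medians taken off, an alternative chosen after seeing the data, they were 2 and 9, then 57 and 113.

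Time classes are given as early rises fading and kept, early falls recovering and kept, late rises and falls, and continuing rises and falls. Reported numbers were 31 and 32, 20 and 11, 4 and 10, 7 and 3. Without a floor they were 851 and 858, 509 and 260, 368 and 252, 414 and 123. At 5 FPKM they were 6 and 8, 9 and 5, 1 and 2, 2 and 0. On log2(FPKM + 1), early rises were 5 and 9, recovering falls 9, late changes 1 and 6, continuing ones 1 and 0. Centring each library, the control included, on genes at 5 FPKM or more gave 23 and 23, 25 and 13, 2 and 13, 5 and 4. The shift between 12 h and 6 h was 0.0070 log2, and the shift against the control is not given here.

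Of the recomputed list medians 193 stayed within 0.1 log2 of the reported one, 11 moved further and 2 of 0.1 log2 or more changed sign. Of the 193, 13 came from reported medians under 0.1 log2 in size and crossed 0, so the direction of such small medians is not settled. The chemokine median was −0.86 without a floor, −0.34 on log2(FPKM + 1) and −0.83 without members of more than 1 list. Without a floor the NF-kB feedback median was −0.35, the immediate-early median −0.31, the cholesterol median 0.18 and the splicing median 0.26. The collagen median was 0.042 without a floor, 0.41 at 5 FPKM and reversed to −0.0096 with span-class medians taken off. The insulin-like growth factor median reversed to 0.0048 without shared members. At 5 FPKM the immediate-early median was −0.41, the ERK feedback median −0.39 and the TCA cycle median 0.32, over 6, 4 and 2 genes. The ribosomal RNA list had 0.34 on log2(FPKM + 1). With span-class medians taken off, the NF-kB feedback median was −0.17 and the immediate-early median −0.19. The floors change these values through which genes are counted; for the others the cause was not tested. The 30 genes of largest difference kept direction and stayed within 1.5 times their reported difference under every setting that could be applied to them, and 18 had a span class. For a single gene the floor settings return the same difference and centring takes off only 0.0070 log2, so these could not show a change. Only the pseudocount and, for the 18, the span class could. The depth is unknown, so the error of low values is unknown.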
